A study of Homo sapiens with 8 samples.

Results

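Long non-coding RNAs (lncRNAs) are transcripts that do not encode a protein, and many start beside a protein-coding gene and share its promoter. The regions described here are those H3K4me3 regions that lie at a lncRNA start and away from every coding one, called lone lncRNA promoters below. They were taken from the union of 6 peak lists on chromosomes 1 to 22, with touching peaks merged. A region was kept when it overlapped the 1 kb on either side of the annotated 5′ end of a GENCODE lncRNA gene and lay more than 5 kb from the 5′ end of every protein-coding transcript. Of 30268 regions, 1618 (5.35%) met this rule.

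The lists came from H3K4me3 ChIP-seq of U2OS, a human osteosarcoma cell line that keeps its telomeres without telomerase. The groups were 3 libraries of wild type (WT) clones and 3 libraries of clones in which ZBTB48 was knocked out (KO), each library from a clone of its own, and all 6 clones had received IFNγ at 250 U/ml for 24 h. ZBTB48 is a zinc finger protein that binds telomeric repeats and a set of gene promoters, and the study asked what its loss does to H3K4me3. No untreated library was among them, so nothing below measures a response to IFNγ.

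H3K4me3, the trimethylation of histone H3 at lysine 4, is laid down around the start of transcribed genes, mostly over CpG-rich DNA that is free of DNA methylation. At coding genes it forms a domain on both sides of the start that usually reaches farther into the gene. Active lncRNA promoters carry the same mark, and it is used to tell a transcript with its own promoter from one read through from a neighbour. Some lncRNAs have known roles in the nucleus, such as MALAT1 in nuclear speckles and NEAT1 in paraspeckles, and others serve as hosts from which microRNAs or small nucleolar RNAs are cut.

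The 6 lists held 21025 to 25545 peaks on these chromosomes, and 5.52% to 5.70% of the peaks of each list lay on lone lncRNA promoters. The lists gave no read counts, so the depth of each library is unknown. They fell into 2 kinds that matched genotype only in part, since both lists of the wide kind were WT. WT replicates 1 and 2 had a median fold enrichment of 13.6 and 14.1 and median peak widths of 2310 and 2365 bp. WT replicate 3 and the 3 KO lists had 4.18 to 4.63 and 1271 to 1483 bp. The clone labels of the 2 WT inputs match those of WT replicates 1 and 2, and what part the inputs had in this difference was not tested. Counts of regions that were longer in one genotype are therefore also given for WT replicate 3 alone against the KO libraries. Peaks lay within 1 kb of the 5′ ends of RUNX2, COL1A1, SPARC, VIM and FN1 in all 6 lists, as of mesenchymal and bone-forming cells, and of COL1A2 and TWIST1 in none. Of the markers of other cell types, EPCAM had a peak in all 6 lists and PTPRC, CD3E, CDH1 and ALB in none. The ZBTB48 promoter itself had a peak in all 6 lists, which does not test the knockout.

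The sequences at 6 of these starts are shown because they include CpG-rich and CpG-poor starts, from regions called in all 6 libraries or in 1 genotype only. Each is 300 bases of GRCh38 read along the strand of the gene, 250 before the annotated 5′ end and 50 from it on, with every CpG in capitals. The first 3 starts belong to regions called in all 6 libraries, the next 2 to regions called only in the WT libraries and the last to a region called only in the KO libraries.
MALAT1, chr11:65497390-65497689, plus strand: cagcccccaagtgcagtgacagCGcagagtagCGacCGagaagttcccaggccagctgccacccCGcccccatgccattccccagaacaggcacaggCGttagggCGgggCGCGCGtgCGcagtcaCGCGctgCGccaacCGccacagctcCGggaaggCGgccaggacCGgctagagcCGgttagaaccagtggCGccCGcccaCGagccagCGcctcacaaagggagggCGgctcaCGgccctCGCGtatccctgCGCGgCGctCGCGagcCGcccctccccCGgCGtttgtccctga
NEAT1, chr11:65422524-65422823, plus strand: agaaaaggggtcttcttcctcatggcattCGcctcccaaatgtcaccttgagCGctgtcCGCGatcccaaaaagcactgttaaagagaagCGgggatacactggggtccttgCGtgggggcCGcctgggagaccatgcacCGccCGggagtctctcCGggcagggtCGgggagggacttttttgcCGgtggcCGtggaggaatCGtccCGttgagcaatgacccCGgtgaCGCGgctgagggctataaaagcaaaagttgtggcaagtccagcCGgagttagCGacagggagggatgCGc
DNM3OS, chr1:172144791-172145090, minus strand: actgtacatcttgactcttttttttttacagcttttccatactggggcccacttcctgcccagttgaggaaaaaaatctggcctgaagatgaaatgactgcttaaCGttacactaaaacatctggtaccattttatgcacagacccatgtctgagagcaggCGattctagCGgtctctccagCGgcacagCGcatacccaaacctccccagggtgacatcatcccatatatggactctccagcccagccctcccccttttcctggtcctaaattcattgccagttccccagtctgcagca
LINC02569, chr6:30516016-30516315, plus strand: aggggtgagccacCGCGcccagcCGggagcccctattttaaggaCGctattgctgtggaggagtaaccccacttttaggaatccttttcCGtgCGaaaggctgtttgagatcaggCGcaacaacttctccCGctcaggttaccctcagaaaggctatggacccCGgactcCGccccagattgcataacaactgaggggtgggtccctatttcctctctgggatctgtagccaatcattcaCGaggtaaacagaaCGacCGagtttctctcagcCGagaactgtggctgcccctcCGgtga
ENSG00000267095, chr17:60140032-60140331, minus strand: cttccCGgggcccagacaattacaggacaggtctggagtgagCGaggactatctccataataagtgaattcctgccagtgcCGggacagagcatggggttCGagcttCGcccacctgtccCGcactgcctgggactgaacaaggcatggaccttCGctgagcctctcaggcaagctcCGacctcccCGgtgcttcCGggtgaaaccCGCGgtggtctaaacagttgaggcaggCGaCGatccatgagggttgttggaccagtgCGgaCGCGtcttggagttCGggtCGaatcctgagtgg
LINC00620, chr3:13650446-13650745, plus strand: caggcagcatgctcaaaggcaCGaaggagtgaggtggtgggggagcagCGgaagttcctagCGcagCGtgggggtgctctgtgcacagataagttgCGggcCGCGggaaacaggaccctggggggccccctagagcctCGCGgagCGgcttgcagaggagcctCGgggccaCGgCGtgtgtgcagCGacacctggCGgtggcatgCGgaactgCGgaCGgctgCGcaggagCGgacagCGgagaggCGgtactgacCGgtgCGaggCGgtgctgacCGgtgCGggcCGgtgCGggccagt
The MALAT1 window held 34 CpGs, the NEAT1 window 21 and the LINC00620 window 29, whereas the DNM3OS window held 5. The ratio of observed to expected CpG, which corrects for base composition, was 0.89 at MALAT1, 0.79 at NEAT1 and 0.30 at DNM3OS. CpG-rich and CpG-poor starts were thus both found among the regions called in every library.

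The 1618 regions held the 5′ ends of 1834 of the 18390 autosomal lncRNA genes (9.97%), while 5385 of those genes had an H3K4me3 region of any kind within 1 kb. Most regions, 1419, had 1 lncRNA 5′ end, and 199 had more, of which 171 had them on opposite strands. In 1243 regions a lncRNA 5′ end lay inside the region, and in 375 it lay outside within 1 kb. The median distance to the nearest coding 5′ end was 48732 bp. The nearest region kept lay 5029 bp away, 32 regions lay between 5 and 6 kb, and 37 regions at a lncRNA start were left out because a coding 5′ end lay between 4 and 5 kb away. By position, 1362 regions started outside protein-coding genes, 199 inside one on its opposite strand and 57 inside one on its own strand. Merged regions had a median width of 1564 bp, from 224 to 14133 bp, against 3335 bp for protein-coding promoter regions, which are those within 1 kb of a coding 5′ end, and 833 bp for distal regions, which are over 5 kb from any coding 5′ end and over 1 kb from any lncRNA one.

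Lone lncRNA promoters stood between coding promoters and distal regions in how regularly they were called. Of the 1618, 958 were called in all 6 libraries (59.2%, 95% Wilson interval 56.8% to 61.6%), compared with 91.2% of 13237 coding promoter regions and 27.3% of 13970 distal regions. At the other end, 243 (15.0%) were called in a single library, compared with 2.98% of coding and 33.7% of distal regions. Intervals over regions treat regions as independent, which neighbouring regions are not. By construction every region was called in at least 1 library.

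**Figure D1:**
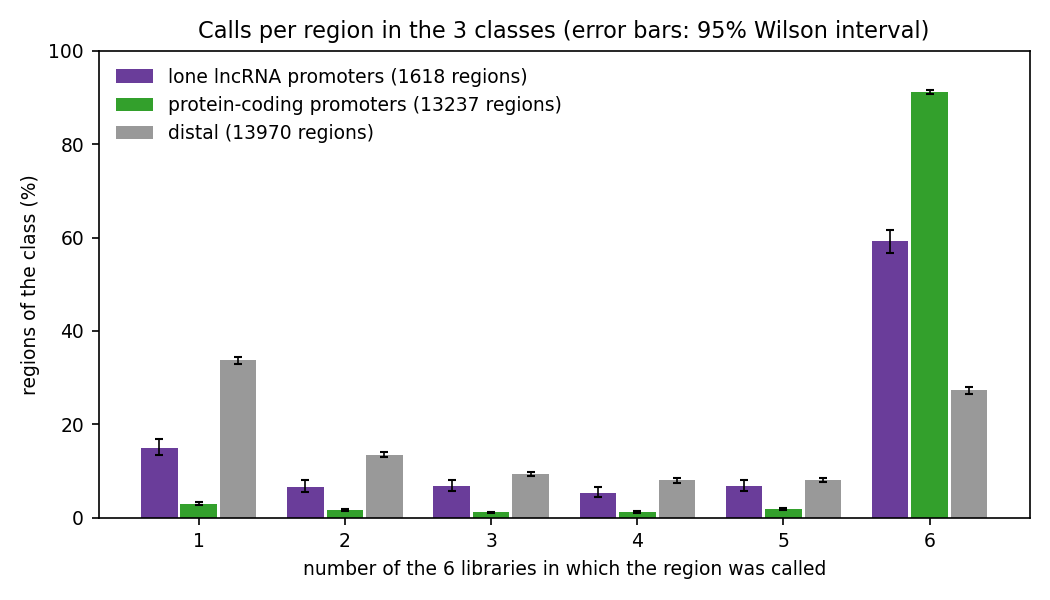
Share of regions of each class (vertical axis, percent) by the number of libraries that called them (horizontal axis, 1 to 6), with 95% Wilson intervals. At 6 libraries the bars stand at 59.2% for lone lncRNA promoters, 91.2% for protein-coding promoters and 27.3% for distal regions.

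Within each library the same order held. The share of lone lncRNA promoters called was 74.7%, 75.5% and 81.2% in WT replicates 1 to 3 and 85.8%, 72.2% and 70.6% in KO replicates 1 to 3, whereas coding promoters reached 94.1% to 96.5% and distal regions 44.6% to 71.7%. The gap to coding promoters was −18.5 ± 4.90 percentage points (SD, n = 6 libraries), negative in 6 of 6, and the gap to distal regions 22.5 ± 4.81 points, positive in 6 of 6. Both had p = 0.0312 by a two-sided exact sign-flip permutation test, the smallest that 6 libraries allow. After Benjamini-Hochberg adjustment over the 9 tests of the design both had 0.0703, the lowest adjusted p that these tests allow. Neither could therefore pass 0.05 after adjustment. Where peaks had to cover 50% of a region to count as a call, the gap to coding promoters shrank to −7.10 points (p = 0.406, exact sign-flip permutation test) and that to distal regions was 18.5 points.

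Strength was compared as the rank of a region within its own list, since values of separate lists are not on one scale. The percentile of a region is the percent of the list's peaks whose −log10 p was at or below that of the region's highest peak. Over the regions each library called, the median percentile of lone lncRNA promoters was 39.2, 39.8 and 42.2 in the WT libraries and 43.9, 37.2 and 37.9 in the KO libraries. Coding promoters had 68.1 to 72.7 and distal regions 19.8 to 24.5. The gap to coding promoters was −29.9 ± 0.993 points (SD, n = 6 libraries) and that to distal regions 18.4 ± 0.945 points, each with p = 0.0312 and adjusted p = 0.0703 by the exact sign-flip permutation test. These gaps varied less between libraries than the shares called did.

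CpG content at the start moved with the number of libraries that called a region. The median CpG ratio of the 300-base windows was 0.60 for the 958 regions called in all 6 libraries, 0.34 for the 417 called in 2 to 5 and 0.32 for the 243 called in 1. It was 0.29 over all lncRNA genes and 0.78 over all protein-coding genes. The windows of lncRNA genes lay at the outermost 5′ end of the gene. Those of coding genes lay at the start of a representative transcript, so the lncRNA and coding values rest on unlike starts. Of the 593 regions with a ratio over 0.6, 80.6% were called in all 6 libraries, compared with 53.8% of the 554 with 0.3 to 0.6 and 38.6% of the 471 at or below 0.3. Regions with a start inside them were called in all 6 libraries in 68.3% of cases, those with the start outside in 29.1%. Paired starts on opposite strands had 80.1% called in all 6 libraries, single starts 56.3%. The widths of these groups differ too: the median covered length was 1479 bp above a ratio of 0.6 and 544 bp at or below 0.3. Whether CpG content, width or the number of starts sets the calls was not tested.

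**Figure D2:**
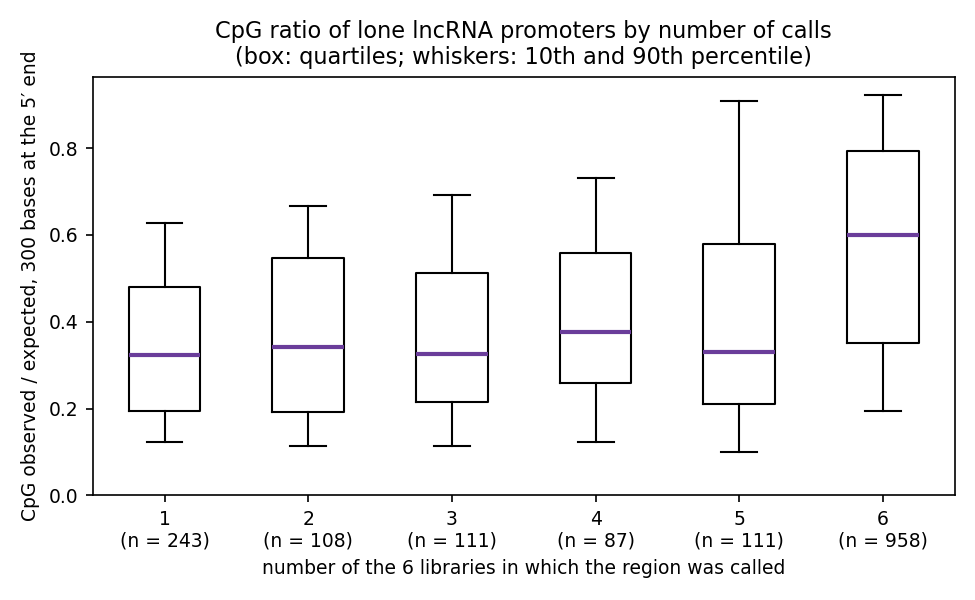
CpG observed to expected ratio of the 300 bases at the 5′ end (vertical axis) for lone lncRNA promoters, split by the number of libraries that called the region (horizontal axis, number of regions in parentheses). Boxes are quartiles with the median and whiskers the 10th and 90th percentiles; the box of the 958 regions called in all 6 libraries, with a median of 0.60, lies above the others.

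Short motifs were counted in the same windows on both strands, so the coding windows again lay at the start of a representative transcript. TTAGGG, the telomeric repeat unit, was in 9.46% of the 1618 windows, in 9.42% of those of all 18390 lncRNA genes and in 8.52% of those of 19111 protein-coding genes. TTCNNNGAA, the form of site bound by STAT factors, was in 6.61% of the lone lncRNA windows, in 8.61% of all lncRNA windows and in 6.61% of the coding ones, and GAAA followed after any 2 bases by GAAA again, as bound by interferon regulatory factors, in 3.89%, 4.23% and 3.27%. TATAAA was in 8.87% of the windows of regions called in all 6 libraries and in 16.0% of those called in 1, with 15.9% over all lncRNA genes. CCAAT was in 33.2% of the lone lncRNA windows and in 35.7% of the coding ones. Of the sequences shown above, MALAT1 held TTAGGG, NEAT1 held TATAAA, and LINC02569 held CCAAT. These are matches of letters and not measured binding.

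The number of lone lncRNA promoters called did not separate the genotypes. WT replicates 1 to 3 called 1209, 1221 and 1313, and KO replicates 1 to 3 called 1388, 1169 and 1143. The KO clones held both the highest and the lowest number, and the WT clones lay between them. The means were 1248 ± 56.9 and 1233 ± 135 (SD, n = 3 each), a difference of 14.3 regions, with p = 0.9 by a two-sided exact permutation test of the 20 assignments of the libraries, whose smallest p is 0.1. The difference was 211 regions where peaks had to cover 50% of a region (p = 0.4, exact permutation test). The libraries with the most peaks in all, KO replicate 1 and WT replicate 3, also called the most regions that no other library called, 80 and 70, compared with 16 to 29 in the other 4.

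Covered length, the kb under the peaks of a library within these regions, was larger in WT replicates 1 and 2 than elsewhere. It was 2442, 2487 and 1850 kb in the WT libraries and 1898, 1492 and 1398 kb in the KO libraries. WT replicate 3 lay below KO replicate 1, so the genotypes overlapped, and the difference of 664 kb had p = 0.2 by the exact permutation test (adjusted p = 0.3). Over the 958 regions called in all 6 libraries, the median length under peaks was 1958, 2090 and 1475 bp in the WT libraries and 1462, 1283 and 1210 bp in the KO libraries. Here no WT library fell below a KO library, but WT replicate 3 and KO replicate 1 differed by less than the SD of either group. The difference of 523 bp between 1841 ± 324 and 1318 ± 130 bp (SD, n = 3 each) had p = 0.1, the smallest the exact permutation test allows, and an adjusted p of 0.18.

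**Figure D3:**
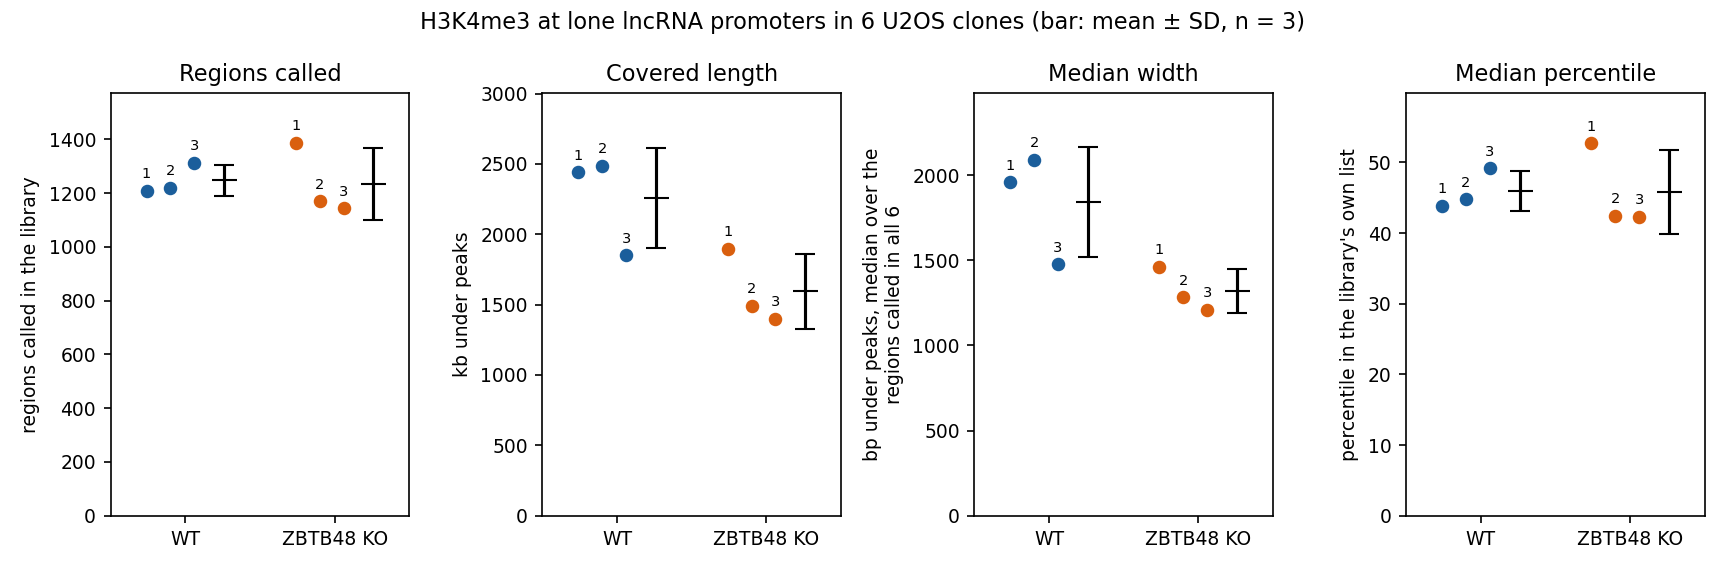
Values of lone lncRNA promoters in each library: regions called, kb under peaks, median bp under peaks over the 958 regions called in all 6 libraries, and median percentile of the same regions. Numbered points are replicates of WT (blue) and ZBTB48 KO (orange), bars beside them mean ± SD (n = 3); WT replicates 1 and 2 stand apart in covered length and width, at 2442 and 2487 kb, and the genotypes overlap in every panel except that of width.

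Length differed in the other classes of region too. Over regions called in all 6 libraries, the median ratio of WT to KO mean covered length was 1.39 at lone lncRNA promoters, 1.56 at coding promoters and 1.28 at distal regions. With WT replicate 3 in place of the 3 WT libraries the ratios were 1.1, 1.1 and 1.15. Covered length was higher in every WT than in every KO library at 376 of the 1618 regions (23.2%), where 27.1% of all regions had this, 49.3% of coding and 8.13% of distal ones. The reverse held at 10 regions (0.618%), with 0.624% of all regions. At 1567 regions called in WT replicate 3 or a KO library, WT replicate 3 was above every KO library at 636 (40.6%) and below every one at 109 (6.96%), where all regions had 43.6% and 3.9%. The share below every KO library was larger at lone lncRNA promoters than over all regions, a difference that was not tested, and it was 2.82% at coding promoters and 4.48% at distal regions.

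Ranks within the lists did not separate the genotypes either. The median percentile of the 958 regions called in all 6 libraries was 43.9, 44.8 and 49.2 in the WT libraries and 52.7, 42.4 and 42.3 in the KO libraries. WT replicate 3 and KO replicate 1 were the 2 highest, and the means of 45.9 ± 2.85 and 45.8 ± 5.96 differed by 0.13 points (p = 1, exact permutation test). WT replicate 3 and KO replicate 1 also had the longest lists, with 23684 and 25545 peaks. A percentile rises with the number of weaker peaks in its list, so it is not independent of list length. With an equal number of peaks per list the difference was 0.17 points (p = 0.7, exact permutation test). A percentile higher in every WT than in every KO library was found at 31 of the 958 regions (3.24%, with 6.42% of all regions called in all 6 libraries), and the reverse at 52 (5.43%, with 7.07%). The gap to coding promoters differed by 0.40 points between WT and KO (p = 0.5, adjusted p = 0.643, exact permutation test).

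Along the strand of the lncRNA, peaks reached farther downstream than upstream of the annotated 5′ end in every library. The 5′ end used is the outermost one of the gene, so any other annotated start lies downstream of it. How much this adds to the downstream side was not tested. At the 692 regions called in all 6 libraries with a single lncRNA 5′ end that lay inside, a peak covered the annotated 5′ end in 95.5%, 95.4% and 89.6% in the WT libraries and in 89.2%, 80.8% and 78.2% in the KO libraries. Among those, the peak extended by a median of 706 bp upstream and 1235 bp downstream in WT replicate 1, by 535 and 871 bp in WT replicate 3, by 537 and 868 bp in KO replicate 1 and by 418 and 728 bp in KO replicate 3. The downstream side was the longer one in 65.2% to 69.0% of the regions. WT replicate 3 and KO replicate 1 had nearly the same profile, with 42.1% of the starts covered 1000 bp downstream in both, compared with 60.3% and 61.4% in WT replicates 1 and 2.

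**Figure D4:**
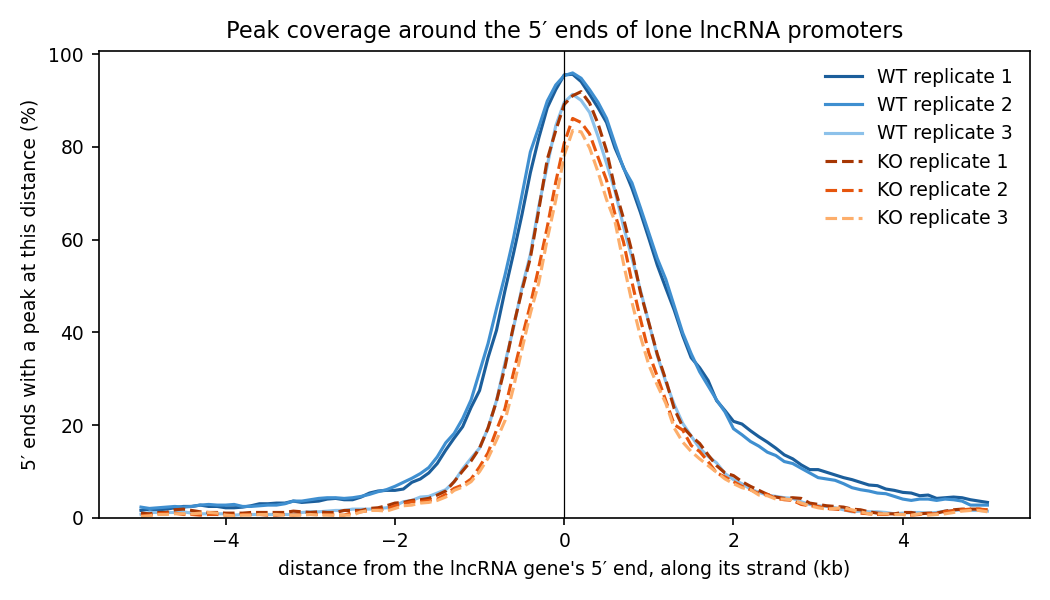
Percent of 692 lncRNA 5′ ends with a peak (vertical axis) at each distance from the 5′ end along the strand of the gene (horizontal axis, kb, upstream to the left), one line per library. All 6 lines fall off more slowly downstream, WT replicates 1 and 2 are the widest, and WT replicate 3 follows KO replicate 1.

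Presence in 3 of 3 WT lists and 0 of 3 KO lists was found for 6 lone lncRNA promoters (0.371%, where all regions had 0.317%), and the opposite pattern for another 6 (0.371%, where all regions had 0.281%). Both shares were near those of all regions, with Wilson intervals of 0.170% to 0.807%. One region of each set lay on chromosome 8, and the other 10 are described here. ENSG00000267095, at chr17:60138607-60140403 and 9539 bp from the nearest coding 5′ end, had 601, 1797 and 748 bp under peaks in the WT libraries, at percentiles 10.1, 25.9 and 14.9. LINC02569, at chr6:30515969-30516895 in the MHC region and 26460 bp from the nearest coding 5′ end, had 732, 533 and 924 bp at percentiles 9.28, 7.73 and 20.8, and the peak covered its 5′ end in all 3 WT libraries. The other three WT-only regions were ENSG00000249894, with 349 to 398 bp, ENSG00000289071, with 380 to 656 bp, and ENSG00000250049, with 290 to 593 bp. The peak covered the 5′ end in 1 library at ENSG00000267095 and in 2 at ENSG00000250049. It did so in 0 libraries at ENSG00000249894 and ENSG00000289071, whose 5′ ends lay 329 and 619 bp outside the region. In all 5 regions the weakest WT percentile was 10.1 or lower, so each rested on at least 1 peak near the bottom of its list.

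Among the regions called only in the KO libraries, ENSG00000289583 at chr14:68779551-68780913 had 1125, 929 and 267 bp under peaks, at percentiles 17.0, 10.6 and 3.31. LINC00620 at chr3:13650414-13650981 had 439, 246 and 381 bp at percentiles 17.5, 4.92 and 2.66, over the CpG-rich start shown above. ENSG00000259182 had 859, 478 and 396 bp, MRPS9-AS1 593, 499 and 313 bp, and ENSG00000243491 1918, 504 and 677 bp. The peak covered the 5′ end in 3 libraries at ENSG00000289583, LINC00620 and MRPS9-AS1, in 2 at ENSG00000243491 and in 1 at ENSG00000259182. The weakest percentiles of these KO-only regions ran from 0.67 to 3.31. A region without a peak in a list fell short of the caller's threshold there and need not have lacked the mark.

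Some lone lncRNA promoters ranked near the top of every list. Of the 10 regions called in all 6 libraries whose lowest percentile was highest, 3 lay on chromosome 8. The other 7 were ENSG00000233577 (lowest percentile 99.6), RP9P (97.8), LINC01518 (97.6), CRYBB2P1 (97.3), ENSG00000290796 (95.5), LINC00839 (95.5) and LINC01918 (94.8). RP9P and CRYBB2P1 are pseudogenes that the annotation lists as lncRNA genes, and reads from near-identical copies had been dropped by the authors. ENSG00000233577, ENSG00000290796 and CRYBB2P1 lie near each other on chromosome 22, at chr22:25282128-25283557, chr22:25401945-25406830 and chr22:25447571-25451086. LINC00839 and LINC01518 lie near each other on chromosome 10, at chr10:42473957-42477920 and chr10:42689444-42692809. The inputs were not used for these ranks, and what sets the ranks was not tested. High rank did not mean great length: ENSG00000233577 had 1430, 1403 and 1139 bp in the WT libraries and 1150, 1074 and 1049 bp in the KO libraries.

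Known nuclear and structural lncRNAs were marked in every library wherever they belonged to the class. Of the 17 genes of this list, 6 had a lone promoter region and all 6 were called in all 6 libraries. Of all lone lncRNA promoters 59.2% were called in all 6, and of all 30268 regions 17298 were. CRNDE, LINC-PINT, HOTAIR and HOTTIP had a region within 5 kb of a coding 5′ end, H19, MEG3, TERC, CYTOR, LINC00511 and UCA1 had no region within 1 kb of the annotated 5′ end, and TUG1 was not found as an autosomal lncRNA gene. Covered length was higher in every WT than in every KO library in 3 of the 6, MALAT1, NEAT1 and DLEU2, and in none was the reverse found. All regions had 27.1% and 0.624%, and coding promoters 49.3% and 0.196%. WT replicate 3 alone was above every KO library in 4 of the 6, where all regions had 43.6% and coding promoters 53.6%.

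MALAT1, which sits in nuclear speckles, had one of the widest regions, chr11:65496736-65508841, 16236 bp from the nearest coding 5′ end. Its covered length was 12064, 12006 and 7293 bp in the WT libraries and 6925, 6346 and 5657 bp in the KO libraries. The step lay between WT replicate 2 and WT replicate 3, and WT replicate 3 was 368 bp above the highest KO library. Its percentile was 70.3 and 69.1 in WT replicates 1 and 2 and 22.7 to 34.6 in the other 4 lists, and the peak covered the annotated MALAT1 5′ end in 2 libraries.

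NEAT1, the scaffold of paraspeckles, had its region at chr11:65418016-65431703. Covered length was 13605, 11831 and 4251 bp in the WT libraries and 4125, 3145 and 3984 bp in the KO libraries, so here too WT replicate 3 was close to the KO clones. DLEU2, a microRNA host in a region often deleted in leukaemia, had 4430, 4603 and 2903 bp and 2816, 2665 and 2630 bp. KCNQ1OT1, the imprinted antisense transcript whose start lies in an intron of KCNQ1, had 3467, 3506 and 2364 bp and 2370, 2241 and 2197 bp. In both genes WT replicate 3 and KO replicate 1 differed by less than 100 bp. NORAD, which binds Pumilio proteins, had a short region with 1151, 989 and 996 bp in the WT and 1086, 846 and 664 bp in the KO libraries, and the groups overlapped.

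MIAT varied between clones of one genotype more than between genotypes. It had 4646, 958 and 4033 bp in the WT libraries and 1380, 2432 and 3599 bp in the KO libraries. Its percentile was 35.3 in WT replicate 1, where the region was longest, and between 50 and 58.9 in the other 5. The peak covered its annotated 5′ end, whose CpG ratio was 0.13, in 2 libraries.

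**Figure D5:**
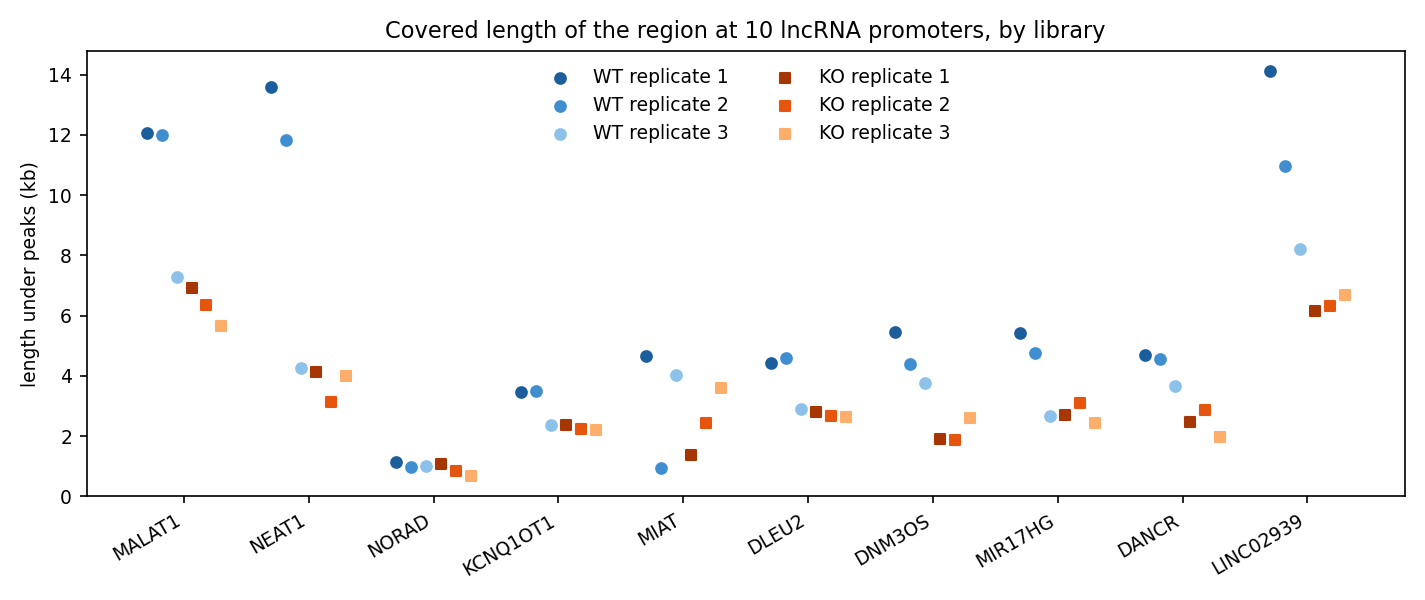
Length under peaks (vertical axis, kb) in the region of 10 lncRNA promoters, one point per library (circles WT, squares KO). WT replicates 1 and 2 lie above the other libraries at MALAT1 and NEAT1, WT replicate 3 lies near the KO libraries there, and the points of the 2 genotypes are mixed at NORAD and MIAT.

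Of 22 interferon-linked and MHC lncRNAs, 7 had a lone promoter region and 6 of these were called in all 6 libraries, where 59.2% of all lone lncRNA promoters were. The 6 were HCG11, HCG14, HCG25, HCG27 and HLA-F-AS1, all from the MHC or its neighbourhood, and LUCAT1, a stress-induced lncRNA. HCP5, an MHC lncRNA, had a peak of 1868 bp in WT replicate 3, at percentile 13.7, and none in the other 5 libraries. A further 8 had a region within 5 kb of a coding 5′ end, 4 (HLA-DQB1-AS1, NRIR, MIR155HG and IFNG-AS1) had no region within 1 kb and 3 were not found under their symbol. HLA-F-AS1 had 6485, 6846 and 2210 bp in the WT libraries and 2132, 2001 and 2065 bp in the KO libraries, so the 2 libraries of the wide kind stood apart and WT replicate 3 lay 78 bp above KO replicate 1. HCG27 had 3798, 3705 and 3061 bp and 2841, 2472 and 2515 bp. LUCAT1 had 4326, 4908 and 3169 bp and 3154, 3155 and 2105 bp. In 4 of the 7 regions every WT library was above every KO library and in none the reverse. All regions had 27.1% and 0.624%, and coding promoters 49.3% and 0.196%. The lowest WT library led the highest KO library by 14 bp at LUCAT1, 78 bp at HLA-F-AS1, 181 bp at HCG11 and 220 bp at HCG27. WT replicate 3 alone was above every KO library in 5 of the 7, against 43.6% of all regions and 53.6% of coding promoters.

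In the p53-linked list of 7 genes, PURPL was the only one with a lone promoter region. It had 1816, 1472 and 484 bp under peaks in the WT libraries and 1039, 701 and 721 bp in the KO libraries. WT replicate 3 was the lowest of the 6, and the groups overlapped. A further 3 genes of the list, TP53TG1, DINOL and MIR22HG, had a region within 5 kb of a coding 5′ end in all 6 libraries.

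Where hosts of microRNAs and small nucleolar RNAs had a lone promoter region, it was called in nearly every library. Of 110 host genes, 37 had such a region, 23 had a region within 5 kb of a coding 5′ end and 50 had no region within 1 kb. Of the 37 lone regions, 35 were called in all 6 libraries, where 59.2% of all lone lncRNA promoters were. Their median covered length was 2364 bp. The other two were MIR5689HG, called in 4 libraries with 0 bp in KO replicates 2 and 3, and the region that MIR137HG shares with ENSG00000288810, called in WT replicates 1 and 2. Every WT library was above every KO library in 18 of the 37 and the reverse was found in none, where all regions had 27.1% and 0.624% and coding promoters 49.3% higher in every WT library. WT replicate 3 alone was above every KO library in 18 of the 37, where all regions had 43.6% and coding promoters 53.6%.

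MIR17HG, the host of an oncogenic microRNA cluster, had 5415, 4747 and 2659 bp in the WT libraries and 2708, 3117 and 2451 bp in the KO libraries, so WT replicate 3 lay within the KO range. DANCR had 4684, 4549 and 3680 bp and 2455, 2868 and 1980 bp, and WT replicate 3 was 812 bp above the highest KO library. SNHG5 had 6027, 5430 and 3605 bp and 3519, 3283 and 3238 bp. MIRLET7BHG, a host of let-7 microRNAs, had 3240, 3247 and 1973 bp and 1780, 1853 and 1768 bp. DANCR and the SNHG genes are hosts of small nucleolar RNAs, which guide the modification of ribosomal RNA. SNHG17 ranked among the strongest of the hosts, at percentiles 82.5, 93.7 and 98.6 in the WT and 92.1, 91.9 and 78.0 in the KO libraries. MIR193BHG had percentiles of 98.8 and 95.3 in WT replicates 1 and 2 and 79.5 to 82.0 in the other 4, so WT replicate 3 lay within the KO range. Both lists of the wide kind were WT, so the kind of list and the genotype cannot be fully told apart here.

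By symbol, all 13 snoRNA host regions and 21 of 22 microRNA host regions were called in all 6 libraries, compared with 65.1% of 372 with a LINC name, 56.0% of 116 with an antisense name and 54.3% of 948 known by an Ensembl identifier only. Where several lncRNA genes shared a region, the symbol was that of the gene whose 5′ end lay inside or nearest to it. Ties went to a listed or named gene. The region that MIR137HG shares with ENSG00000288810, called in 2 libraries, was thus counted under the Ensembl identifier and not as a microRNA host. Regions starting inside a coding gene on its opposite strand were called in all 6 libraries in 45.2% of cases, those outside coding genes in 61.4%.

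The widest regions, by the median over the 6 libraries, were those of LINC02939, MALAT1, LINC01303, LINC01962 and HCG15. LINC02939, at chr22:46068407-46082539, had 14124, 10963 and 8230 bp in the WT libraries and 6170, 6333 and 6694 bp in the KO libraries. It also had the largest lead of the lowest WT over the highest KO library, with one other region chosen by this measure on chromosome 8. DNM3OS, a microRNA host that starts in an intron of DNM3 on its opposite strand, came next with 5458, 4408 and 3767 bp against 1898, 1864 and 2595 bp, and its start, shown above, was CpG-poor. ENSG00000271780 had 3193, 3120 and 3199 bp against 2105, 1964 and 1838 bp, where WT replicate 3 was the longest of the 6. LINC00887 had 3215, 3119 and 2675 bp against 1810, 1720 and 1708 bp. At DNM3OS, ENSG00000271780 and LINC00887 WT replicate 3 lay nearer to the other WT libraries than to the KO libraries. At LINC02939 it lay nearer to the KO libraries, also in percentile, with 50.8 beside 42.2 to 51.0 in the KO and 90.6 and 81.2 in the other WT lists. The 4 regions were picked for that lead, and no exact permutation test of a single region, 3 against 3, can go below 0.1. In percentile, DNM3OS did not separate the groups, with 44.4, 42.8 and 34.6 in the WT and 39.2, 36.2 and 37.6 in the KO libraries. The largest leads of the lowest KO over the highest WT library were those of ENSG00000243491, ENSG00000259182, MRPS9-AS1 and ENSG00000289583, each of them absent from the WT lists, and of a region on chromosome 8.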

How the data were processed

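H3K4me3 ChIP-seq peak lists of 3 WT and 3 ZBTB48 KO clones were used, grouped by genotype and replicate number in the labels. The 2 WT inputs were not used here. Per the study's methods and the submitters' processing notes, the authors used Trimmomatic for trimming and Bowtie2 2.3.5.1 for alignment to GRCh38, dropped duplicates and reads that mapped to several places, and ran MACS2 2.1.1.2 in its broad mode on each library. Whether an input was given for each list is not stated. The notes also list DiffBind 3.2.1 and deepTools 3.5.0.

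The deposited lists hold a display score, a fold enrichment ratio and −log10 p and −log10 q values from the authors' peak calls, averaged over each peak. The −log10 p (column 8) was ranked within its list, and the deposited ratio and −log10 q served only as filters. These lists hold no read counts, so the depth per library is unknown and no counting interval was given.

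Peaks on chromosomes 1 to 22 were merged where they touched, and 1 bp of overlap with a peak of a library counted as a call. Positions are 1-based. Genes came from GENCODE release 44, and 0 peaks lay beyond the chromosome ends of the reference. A gene's 5′ end is that of its longest annotated extent, so other starts of the gene may lie elsewhere. The sequence windows of coding genes were instead placed at the start of the MANE Select transcript or, without one, the Ensembl canonical transcript.

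Genotypes were compared by two-sided exact permutation over 20 assignments, classes within libraries by exact sign-flip over 6 libraries, and the 9 tests were adjusted by the Benjamini-Hochberg method. The members, gene lists and tests were chosen with earlier results of these data known. Genes named were 4 lists (structural, interferon and MHC, p53, small-RNA hosts), the WT-only and KO-only regions (up to 8 each), the 10 highest by lowest percentile, the 5 widest, and the 5 with the largest lead in covered length in each direction. Regions on chromosome 8 were counted but not named, and 1 marker gene and 1 sequence are not reported here. The steps were tested on simulated lists and run in Python 3.11.15 with numpy 2.4.6, scipy 1.17.1 and matplotlib 3.10.9. Alternatives changed the overlap, peak filters, merging, distances, annotation and libraries used.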

Additional observations from a re-analysis of the deposited data

How the results depend on the processing

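Of 178 alternative values over 18 settings, 154 kept the direction and side of the threshold (or, for counts, stayed within 1.5 times). With so few libraries no test could reach an adjusted p under 0.0703 in any setting. The side of the threshold could therefore not change, and only the direction could. The signs of covered length, width and all 4 gaps to coding and distal regions were the same in every setting run. Where peaks had to cover 50% of a region, the WT minus KO difference in median percentile was −0.012 and that of the gap to coding promoters −3.31, and there were 30 WT-only and 0 KO-only regions. That setting also moved the share-called gap to coding promoters from −18.5 to −7.10 points, with the exact sign-flip p going from 0.0312 to 0.406, and the difference in regions called from 14.3 to 211. The latter was 95.3 with a fold enrichment of at least 4 and 79.7 for WT replicate 3 alone, and the difference in covered length was 254 kb for WT replicate 3 alone against 664 kb. There were 2 WT-only regions with −log10 q of at least 3 and 3 KO-only regions with a fold enrichment of at least 4. WT replicate 3 alone against the KO libraries gave 96 WT-only and 37 KO-only regions. There WT-only needed a call in 1 library and KO-only in 3, and calls in WT replicates 1 and 2 were ignored. Of the 96, 70 were called in no other of the 6 libraries, and of the 37, 6 had no call in any WT library. Shares over all regions were not computed for the WT-only and KO-only counts of the alternative settings. Leaving out each library in turn, WT-only regions ranged from 6 to 35 and KO-only regions from 7 to 17, the difference in regions called from −30.8 to 91.7, that in median percentile from −1.40 to 3.69 and that of the gap to coding promoters from −0.14 to 1.1. The number called turned negative without WT replicate 3 (−18.3), KO replicate 2 (−17.8) or KO replicate 3 (−30.8). The median percentile did so as well (−1.25, −1.40 and −1.34). WT-only regions were 35 without KO replicate 1, 18 without WT replicate 1, 14 without WT replicate 2 and 15 without WT replicate 3. Leaving out WT replicate 1 or 2 gave 11 KO-only regions each, leaving out WT replicate 3 gave 17, KO replicate 2 gave 12 and KO replicate 3 gave 16. Fewer libraries must then share a pattern, which raises these counts by construction; the cause of the other changes was not tested. As a share of each list's peaks, chosen after seeing the data, the difference in calls was 0.02 points.

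Same-numbered libraries were not paired: their percentile deviations correlated at −0.11, 0.06 and −0.01 over 958 regions. With the replicate number as a block, the difference in regions called was 14.3 with p = 1, and in width 523 bp with p = 0.25, by exact sign-flip permutation of 3 pairs, whose smallest p is 0.25. No read depth was given, so weak regions missing from a list could not be told from unmarked ones.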

Other observations

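Distance to the nearest coding gene and chromosome were not used in any comparison above. Of the 158 lone lncRNA promoters lying over 5 kb and up to 10 kb from a coding 5′ end, 63.9% were called in all 6 libraries, of the 664 at over 10 kb and up to 50 kb 63.1%, and of the 796 farther away 55.0%. Chromosome 16 had the highest share called in all 6 libraries, 77.0% of 61 regions (95% Wilson interval 65.1% to 85.8%), and chromosome 21 the lowest, 38.1% of 21 regions (20.7% to 59.1%). These are descriptions over regions, with no test.

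Pairs of libraries from different genotypes shared calls as well. Besides the regions called in all 6 libraries or in 1, the most common pattern was a call in WT replicate 3 and KO replicate 1 alone, at 32 of 1618 regions. These 2 libraries had the longest lists, with 23684 and 25545 peaks. Calls in WT replicates 1 and 2 alone were seen at 9 regions, and in WT replicate 3 and the 3 KO libraries alone at 11. The shares of these patterns over all regions were not computed, so whether they are particular to lone lncRNA promoters is unknown.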
